A study of Mus musculus with 6 samples.

Results

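The enzymes that oxidise alcohols and the aldehydes made from them were compared between livers of mice that received the compound DDK and livers of mice that received vehicle. The set held 10 genes of the 22173 gene symbols in the deposited expression table, taken by symbol: the alcohol dehydrogenases Adh1, Adh4 and Adh5, the cytochrome P450 Cyp2e1, and the aldehyde dehydrogenases Aldh2, Aldh1b1, Aldh1a1, Aldh1a7, Aldh3a2 and Aldh1l1. All 10 passed the filter on low values and were tested. One group was 3 livers from wild type mice on the HFHC diet that were given DDK, which the series title names a limonoid, and the other was 3 livers from wild type mice on the same diet that were given vehicle. In both groups the diet began at 6 weeks of age and ran for 16 weeks, and DDK or vehicle was given in its last 4 weeks. The study asked how DDK acts against steatohepatitis, the fatty liver disease with inflammation. The sources used here give no dose, sex, strain or cage, and no liver of mice on an ordinary diet was analysed here, so every value is set against diet-fed vehicle mice only. Expression was measured by RNA-seq as FPKM, fragments per kilobase of gene length and scaled to the library's total.

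Alcohol dehydrogenases of the cytosol oxidise an alcohol to an aldehyde with NAD+, and CYP2E1 carries out the same step on ethanol in the endoplasmic reticulum with NADPH and oxygen. Aldehyde dehydrogenases then oxidise the aldehyde to an acid, each with its own substrates and its own place in the cell: acetaldehyde in mitochondria, retinal in the cytosol, and long-chain fatty aldehydes from lipid breakdown at the endoplasmic reticulum. Hepatocytes hold most of these enzymes, and Cyp2e1 is highest in those around the central vein and is known in steatohepatitis as a source of reactive oxygen.

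Aldh3a2, the fatty aldehyde dehydrogenase, was the member whose transcript level fell in DDK livers, to an FPKM of 67.9 ± 3.77 in DDK livers against 208 ± 9.28 in vehicle livers (SD, n = 3 each). The other 9 did not pass the test, an adjusted p under 0.05 from limma over all genes, and among them were the most abundant transcripts of ethanol oxidation, Cyp2e1, Adh1 and Aldh2. The members thus gave 1 lower and 0 higher calls, where 40.5% of the 10681 genes tested were called, 30.3% lower and 10.2% higher in DDK. A further 3, Aldh1a1, Aldh1a7 and Aldh1l1, had an unadjusted p under 0.05, and limma's voom on recovered fragments also called 1 member lower and 0 higher. The 3 livers of each group did not overlap for Aldh1a1 and Aldh1l1, which stood above vehicle in DDK livers, nor for Aldh2 and Aldh3a2, which stood below, against 53.3% of all genes tested (14.1% with DDK above and 39.2% with DDK below). The median log2 change of the 10 members was 0.08, where the median of all genes tested was -0.23, and 6 members had a positive and 4 a negative change.

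The FPKM values could be turned back into whole fragments, which gave library totals of 26576291 to 30237490 fragments for DDK and of 33963898 to 36105315 for vehicle. The members held 2.04 to 2.20% of the fragments in DDK libraries and 2.06 to 2.48% in vehicle libraries, and even Aldh1b1, the lowest, rested on at least 1011 fragments in every library. Scaling between libraries bears on every change below: the median change of all genes was -0.01 when libraries were scaled by median ratios, 0.00 with quantile normalization and -0.45 as TPM. It was also -0.01 after a correction for gene length, which thus shifts genes of all lengths together too. With median-ratio scaling 18.0% of genes were called higher and 16.2% lower, and with a correction for gene length 16.1% and 17.3%, and the members' counts were 2 higher and 1 lower under both. Vehicle replicate 1 stood nearest to the DDK livers on the first principal component, which held 75% of the variance, with a score of 14.1 where DDK livers had -36.4 to -23.6 and the other vehicle livers 36.2 and 40.01. Markers of other cells also moved: of 12 macrophage markers 8 were called lower and 0 higher, with a summed FPKM of 161 to 404 in DDK and 547 to 892 in vehicle livers. Of 12 stellate cell markers 9 were called lower and 0 higher, with a sum of 159 to 201 in DDK and 245 to 278 in vehicle livers. Of 10 endothelial markers 5 were called lower and 0 higher, with a sum of 59.4 to 77.8 in DDK and 87.1 to 129.9 in vehicle livers. Over all genes tested, 30.3% were called lower and 10.2% higher as deposited. Among 12 hepatocyte markers 5 were called higher and 3 lower, with a sum of 80470 to 86111 in DDK and 45001 to 60807 in vehicle livers, and no marker of these lists was at 0 in all libraries. The hepatocyte counts, higher and lower, were 5 and 1 with median ratios, 3 and 5 with quantiles, 5 and 5 as TPM, and 2 and 3 of 8 tested without the 20 most abundant genes. They were 4 and 1 without DDK replicate 1, 2 and 1 without DDK replicate 2, and 3 and 1 without vehicle replicate 2 or 3. The part of these shifts in the members' changes was not tested, and in bulk liver fewer cells of a type and less RNA per cell cannot be told apart.

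**Figure D1:**
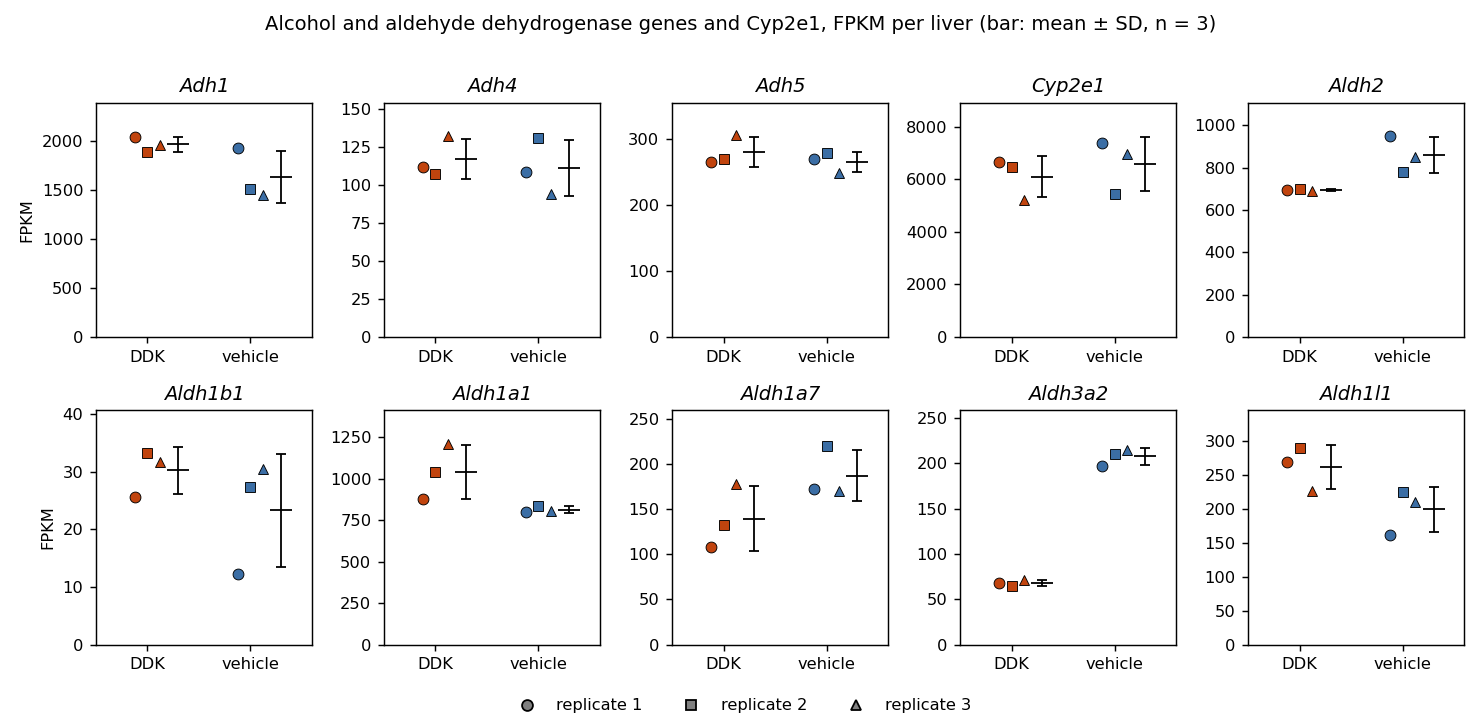
FPKM of the 10 genes in each liver, with DDK at the left and vehicle at the right of each panel, symbols for replicates 1 to 3 and a bar for the mean ± SD (n = 3). The 3 DDK livers of Aldh3a2 lie between 64.2 and 71.7, all below the vehicle livers at 197 to 215, while the groups overlap or lie closer together in the other panels.

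The start regions of 4 of the genes are shown because they belong to the member that fell, to the most abundant member and to the neighbouring pair whose ratio did not overlap between the groups. They are RefSeq promoter windows on GRCm38.p6 of 300 bases, 250 before and 50 after the annotated start, written 5′ to 3′ on the gene's strand. In the first 2, capitals mark matches on either strand to TATAAA (the TATA box), CCAAT (the CAAT box), GGGCGG (the GC box of Sp1), AGGTCA (the core site of many nuclear receptors), GTTAAT (part of the HNF1 site) or TTNNGNAA (the C/EBP type). Aldh3a2 (chr11:61267137-61267436, minus strand) had CCAAT at position -13 and GGGCGG at -47, counted with -1 as the last base before the start, a TTNNGNAA match at -151 and 21 CG dinucleotides, against a median of 7 in all 32851 windows. Cyp2e1 (chr7:140763569-140763868, plus strand) had TATAAA at -31, 2 CCAAT matches and 4 CG dinucleotides.
Aldh3a2: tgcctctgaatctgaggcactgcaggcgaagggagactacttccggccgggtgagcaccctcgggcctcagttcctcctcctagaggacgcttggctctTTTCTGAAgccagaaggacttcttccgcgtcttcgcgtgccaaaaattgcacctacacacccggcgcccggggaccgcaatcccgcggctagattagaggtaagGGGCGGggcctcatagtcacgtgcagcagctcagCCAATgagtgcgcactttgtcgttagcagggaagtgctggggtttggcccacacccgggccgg
Cyp2e1: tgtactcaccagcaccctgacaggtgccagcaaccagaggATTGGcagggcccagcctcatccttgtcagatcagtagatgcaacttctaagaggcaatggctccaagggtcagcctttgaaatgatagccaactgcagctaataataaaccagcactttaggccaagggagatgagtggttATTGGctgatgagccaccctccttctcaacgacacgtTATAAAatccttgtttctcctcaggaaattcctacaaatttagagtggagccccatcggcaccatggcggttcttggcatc
Of all windows, 13.6% held TATAAA, 37.4% CCAAT, 35.7% GGGCGG and 40.7% TTNNGNAA, so each of these matches is common, and a match is letters in a window, not a site shown to be bound. The Aldh2 window was not in the table used.

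Aldh1a1 and Aldh1a7 lie close together on chromosome 19 (GENCODE M21, GRCm38: chr19:20492715-20643465, plus strand, and chr19:20692953-20727562, minus strand). Their start windows (chr19:20601718-20602017, plus strand, the downstream of 2 for Aldh1a1, and chr19:20727507-20727806, minus strand) matched at 92.4% of 225 aligned bases, and at 115 of the last 120. Capitals here mark the 8 runs of at least 12 bases that are identical between them in the alignment, the longest of 65 bases.
Aldh1a1: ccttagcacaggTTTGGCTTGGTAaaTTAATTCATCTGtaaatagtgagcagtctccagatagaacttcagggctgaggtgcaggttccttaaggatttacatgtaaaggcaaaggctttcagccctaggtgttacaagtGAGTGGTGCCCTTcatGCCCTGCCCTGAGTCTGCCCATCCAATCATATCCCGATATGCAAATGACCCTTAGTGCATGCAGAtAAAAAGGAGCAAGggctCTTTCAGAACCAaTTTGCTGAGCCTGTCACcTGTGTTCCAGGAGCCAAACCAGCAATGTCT
Aldh1a7: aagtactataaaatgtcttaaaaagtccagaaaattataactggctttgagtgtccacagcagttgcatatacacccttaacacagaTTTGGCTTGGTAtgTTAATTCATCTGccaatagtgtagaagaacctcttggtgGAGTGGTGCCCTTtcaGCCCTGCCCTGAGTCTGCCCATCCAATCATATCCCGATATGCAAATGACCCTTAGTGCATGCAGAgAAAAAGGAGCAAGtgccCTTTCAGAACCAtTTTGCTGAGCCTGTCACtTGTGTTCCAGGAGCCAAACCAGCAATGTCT
Along the transcripts the pair were 89.0% identical, and 151 of the 50-base stretches of each transcript, 6.54% of those of Aldh1a1 and 7.49% of those of Aldh1a7, also occurred in the other. The sources used here do not say how fragments that match both were counted, so the division of reads between these 2 genes is uncertain to that extent.

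None of the 3 alcohol dehydrogenases passed the test. Adh1, the class I enzyme that oxidises most ethanol and much retinol in the liver, stood at an FPKM of 2040.3, 1885 and 1960.1 in DDK replicates 1 to 3 and at 1929, 1503 and 1446 in vehicle replicates 1 to 3. Vehicle replicate 1 lay within the DDK range and the other vehicle livers below it, so the groups overlapped. An antisense gene, Gm16559, covers 136 bases of its exons. Its log2 change was 0.28 ± 0.16 (SE), with a 95% interval from -0.08 to 0.64 (limma, Benjamini-Hochberg adjusted p = 0.179). Without vehicle replicate 1, Adh1 passed the test, with a change of 0.41 (limma adjusted p = 0.0206).

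Adh5, also known as S-nitrosoglutathione reductase, clears formaldehyde bound to glutathione. It had an FPKM of 265, 270.2 and 306 in DDK livers and of 269, 279 and 248 in vehicle livers, and the groups overlapped. The change was 0.08 ± 0.13 with an interval from -0.20 to 0.36 (limma adjusted p = 0.643). Adh4, the class II enzyme with a preference for larger alcohols such as retinol, had an FPKM of 112, 107 and 132 in DDK livers and of 108, 131 and 94.4 in vehicle livers. The groups overlapped, and the change was 0.08 ± 0.15 with an interval from -0.26 to 0.42 (limma adjusted p = 0.684). The intervals of Adh4 and Adh5 leave out a doubling in either direction, but both genes changed sign under some scalings, Adh5 to -0.16 and Adh4 to -0.15 after rescaling to TPM.

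The 3 genes lie in 1 cluster on the plus strand of chromosome 3 (Adh1 at chr3:138260991-138290698, Adh4 at chr3:138415466-138430892 and Adh5 at chr3:138443093-138455499). Their transcripts were 63.6 to 65.5% identical to each other, and Adh4 and Adh5 shared no 50-base stretch with the transcript of another gene. Adh1 held 83.2 ± 1.34% of the summed alcohol dehydrogenase FPKM in DDK livers and 81.0 ± 2.52% in vehicle livers. Adh5 held 11.9 ± 0.90% in DDK and 13.4 ± 1.51% in vehicle livers, and Adh4 held 4.96 ± 0.48% in DDK and 5.61 ± 1.11% in vehicle livers. Within a liver, Adh1 over Adh5 was 7.70, 6.98 and 6.41 in DDK livers and 7.16, 5.39 and 5.83 in vehicle livers, and Adh1 over Adh4 was 18.2, 17.5 and 14.8 in DDK livers and 17.8, 11.5 and 15.3 in vehicle livers. Both ratios overlapped between the groups.

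Cyp2e1 (chr7:140763739-140774987, plus strand) was the most abundant member, ranking 10 among all genes by mean FPKM. Its FPKM was 6642, 6457 and 5215 in DDK livers and 7397, 5428 and 6959 in vehicle livers. The lowest vehicle liver, replicate 2, lay between the DDK livers, and the groups overlapped. The log2 change was -0.11 ± 0.19 with an interval from -0.54 to 0.33 (limma adjusted p = 0.677), and its sign depended on the scaling, 0.19 with median-ratio scaling and -0.46 with quantile normalization, where alone it passed the test (limma adjusted p = 0.0339). Of 15 pericentral hepatocyte markers, 2 were called higher and 9 lower in DDK livers. Their summed FPKM was 3229 to 3459 in DDK and 3330.0 to 3901 in vehicle livers. This sum leans on Cyp2a5, called higher, at 960, 1078 and 1455 in DDK livers and 514, 222 and 330 in vehicle livers. The closeness of the sums thus does not describe the 9 markers called lower. Of 15 periportal markers, 6 were called higher and 1 lower, with a sum of 3304 to 4409 in DDK and 3278 to 3567 in vehicle livers. Over all genes tested, 10.2% were called higher and 30.3% lower. After median-ratio scaling the pericentral counts were 2 higher and 6 lower and the periportal counts 6 and 1, and their part in the value of Cyp2e1 was not tested.

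Relative to Adh1, Cyp2e1 was lower in DDK livers. The ratio of their FPKM was 3.26, 3.43 and 2.66 in DDK livers and 3.84, 3.61 and 4.81 in vehicle livers, and the groups did not overlap. Adh1 is among the shortest genes tested (148 to 1733 bp) and Cyp2e1 among those of 1734 to 2673 bp. The median changes of these classes were 0.10 and -0.20, a gap in the direction of the ratio whose part in it was not tested. A ratio within a liver does not depend on a scaling factor per library, and with 3 livers a group it is given as a description, since an exact permutation test of 3 against 3 cannot go below 0.10.

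Of 4 genes listed for the supply of electrons to P450 enzymes, all 4 were tested and 1 was called in each direction, with a median change of 0.35. Over all genes tested, 10.2% were called higher and 30.3% lower. Cyb5a, the cytochrome b5 of the endoplasmic reticulum, rose to 2362 ± 69.1 in DDK livers against 1534 ± 81.7 in vehicle livers (FPKM, SD, n = 3; log2 change 0.62 ± 0.14, limma adjusted p = 0.00799). Cyb5a did not pass after the correction for gene length (0.30, adjusted p = 0.0623). Cyb5b, the form on the outer mitochondrial membrane and not that of the endoplasmic reticulum, fell to 39.7 ± 7.28 in DDK livers against 94.4 ± 9.95 in vehicle livers (-1.24 ± 0.15, limma adjusted p = 0.000846).

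**Figure D2:**
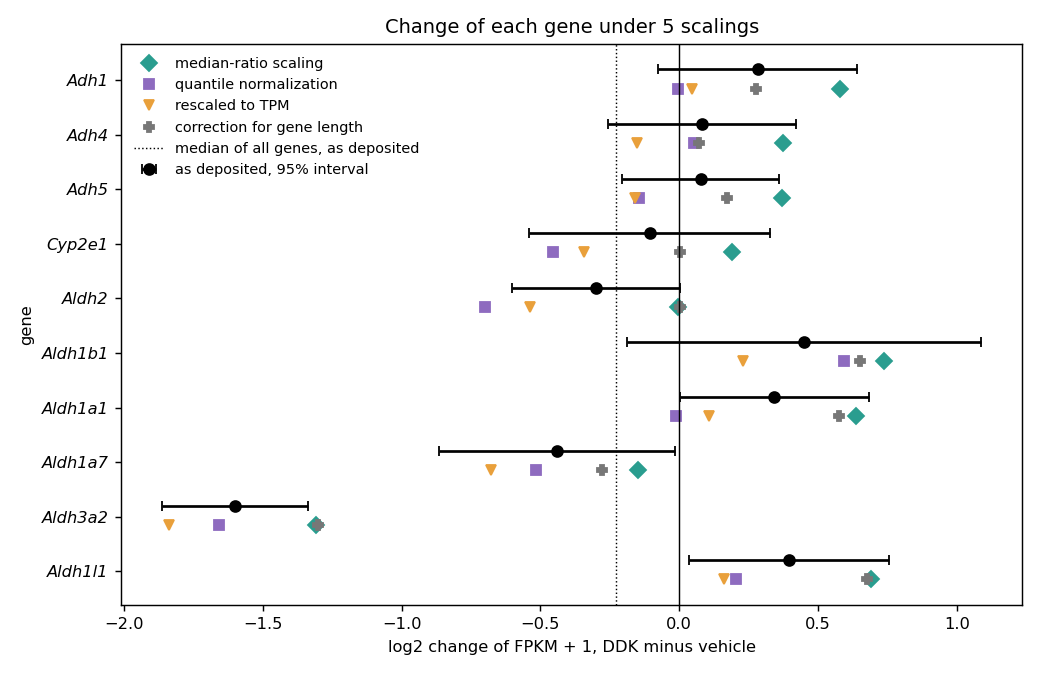
Log2 change of FPKM + 1, DDK minus vehicle, for each gene as deposited (black, with 95% interval) and under 4 other scalings, with the median change of all genes dotted. Aldh3a2 lies between -1.84 and -1.30 under every scaling drawn, while Cyp2e1 spans 0 and Aldh2 reaches it.

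Among the mitochondrial enzymes, Aldh2, the main oxidant of acetaldehyde and also of the lipid peroxidation product 4-hydroxynonenal, had an FPKM of 697, 697 and 691 in DDK livers and of 949, 779 and 849.6 in vehicle livers. All 3 DDK livers lay below all vehicle livers, and the DDK livers were very close to each other. The change of -0.30 ± 0.14 had an interval from -0.60 to 0.00 and did not pass the test (limma adjusted p = 0.0988). Aldh2 passed with quantile normalization (-0.70, adjusted p = 0.00395), as TPM (-0.54, adjusted p = 0.0054) and without the 20 most abundant genes (-0.40, adjusted p = 0.0286), and stood at 0.00 after correction for gene length. As deposited, its change relative to the median change of all genes was -0.07. The gene (chr5:121566027-121593824, minus strand) overlaps the exons of the antisense gene Gm42879 over 130 bases.

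Aldh1b1, a close mitochondrial relative of Aldh2 that also takes acetaldehyde, was the least abundant member (chr4:45799022-45804604, plus strand). Its FPKM was 25.7, 33.3 and 31.6 in DDK livers and 12.2, 27.3 and 30.5 in vehicle livers. Vehicle replicate 1 was far below the other 5 livers, which overlapped. The change of 0.45 ± 0.29 had an interval from -0.19 to 1.09 (limma adjusted p = 0.225), and without vehicle replicate 1 it was 0.06. Aldh2 over Aldh1b1 was 27.1, 20.9 and 21.8 in DDK livers and 78.0, 28.5 and 27.9 in vehicle livers, lower in every DDK liver, with vehicle replicate 1 again apart.

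The cytosolic pair Aldh1a1 and Aldh1a7 stood in a different ratio in the 2 groups. Aldh1a1 oxidises retinal to retinoic acid and also clears lipid aldehydes, and Aldh1a7 is its rodent neighbour copy. Aldh1a1 had an FPKM of 877, 1038 and 1206 in DDK livers and of 800.2, 837 and 804 in vehicle livers. Each DDK liver lay above each vehicle liver, DDK replicate 1 only just, and the change was 0.34 ± 0.15 with an interval from 0.00 to 0.68 (limma adjusted p = 0.0965). Aldh1a7 had an FPKM of 108, 132 and 178 in DDK livers and of 172, 220 and 170.2 in vehicle livers. DDK replicate 3 lay within the vehicle range and the other DDK livers below it, and the change was -0.44 ± 0.19 with an interval from -0.87 to -0.02 (limma adjusted p = 0.0873).

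Neither gene passed the test as deposited, and each passed under some settings. Aldh1a1 passed after median-ratio scaling (0.64, adjusted p = 0.0268) and after correction for gene length (0.58, adjusted p = 0.0121), but stood at -0.01 after quantile normalization. Aldh1a7 passed after rescaling to TPM (-0.68, adjusted p = 0.0192) and without DDK replicate 3 (-0.63, adjusted p = 0.0207), and stood at -0.15 after median-ratio scaling. Their ratio, which no scaling factor per library alters, was 8.12, 7.85 and 6.76 in DDK livers and 4.65, 3.81 and 4.72 in vehicle livers, a mean of 7.58 ± 0.72 in DDK and 4.39 ± 0.51 in vehicle livers. The lowest DDK liver lay well above the highest vehicle liver.

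Aldh3a2 encodes the membrane-bound enzyme that oxidises long-chain fatty aldehydes to fatty acids, and its loss in humans causes Sjögren-Larsson syndrome, a disease of skin and nervous system. Its FPKM was 67.9, 64.2 and 71.7 in DDK livers and 197, 211 and 215 in vehicle livers. The groups lay far apart, with little spread in either. The log2 change was -1.60 ± 0.12 with an interval from -1.86 to -1.34 (limma, Benjamini-Hochberg adjusted p = 9.74e-05), a level 3.03-fold lower in DDK livers, and it lay 1.37 below the median change of all genes. It passed under each of the 20 alternatives, with a change from -1.84 to -1.30 and an adjusted p from 1.13e-05 to 0.00348.

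The recovered fragments of Aldh3a2 were 13374 to 17005 in DDK libraries and 55910 to 57329 in vehicle libraries. The gene (chr11:61223417-61267464, minus strand) shared no 50-base stretch of its longest coding transcript with another gene's transcript, and its 5619 bp of annotated exons overlapped no exon of another gene. The length by which the authors divided, recovered as 7843 bp, was 2.54 times the longest coding transcript in GENCODE M21 (3091 bp), where the other 9 members lay between 0.767 and 1.11 times. It also exceeded the annotated exons, so part of the counted sequence was not covered by these checks, and its part in the change was not tested. By length, mainly the shortest genes stood apart: the median change was 0.10 over the 2138 shortest genes tested (148 to 1733 bp). Over the longer classes it was -0.20, -0.28, -0.31 and -0.29 in order of length. The last of these, the 2136 longest (5723 to 45209 bp), includes Aldh3a2. After correction for gene length the change of Aldh3a2 was -1.30 and the median of all genes was -0.01. As deposited these were -1.60 and -0.23, so the correction moved all genes as well.

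Aldh1l1, the cytosolic enzyme that turns formyltetrahydrofolate to tetrahydrofolate and so drains 1-carbon units from folate, lies on chromosome 6 (chr6:90486427-90600203, plus strand). It had an FPKM of 268, 289 and 226 in DDK livers and of 162, 224 and 210.5 in vehicle livers. The lowest DDK liver, replicate 3, lay just above the highest vehicle liver, replicate 2. The change of 0.40 ± 0.16 had an interval from 0.04 to 0.76 and did not pass (limma adjusted p = 0.0730). Aldh1l1 passed after median-ratio scaling (0.69, adjusted p = 0.0141), after correction for gene length (0.68, adjusted p = 0.00908) and without DDK replicate 3 (0.50, adjusted p = 0.0496). A gene on the same strand, Gm45901, overlaps exons of Aldh1l1. An antisense gene, Gm15756, covers 499 bases of the Aldh1l1 exons, and 8.34% of the 50-base stretches of the Aldh1l1 transcript also occur in Gm15756. The library kit does not mark strand, so reads of Aldh1l1 and Gm15756 cannot be told apart there.

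Aldh3a2 took a different place in the order of levels per length. In DDK livers the mean FPKM ran from Cyp2e1 (6105 ± 776) through Adh1, Aldh1a1, Aldh2, Adh5, Aldh1l1, Aldh1a7, Adh4 and Aldh3a2 to Aldh1b1 (30.2 ± 4.02). In vehicle livers it ran from Cyp2e1 (6595 ± 1034) through Adh1, Aldh2, Aldh1a1, Adh5, Aldh3a2, Aldh1l1, Aldh1a7 and Adh4 to Aldh1b1 (23.3 ± 9.79). Neighbours whose livers overlapped were Adh5 with Aldh1l1 and Aldh1a7 with Adh4 in DDK, and Aldh2 with Aldh1a1, Aldh3a2 with Aldh1l1 and Aldh1l1 with Aldh1a7 in vehicle. Aldh3a2 thus stood beside Aldh1l1 in vehicle livers, and apart from both its neighbours below Adh4 in DDK livers. These places depend on its recovered length of 7843 bp, which is 2.54 times its longest coding transcript. With a shorter length Aldh3a2 would stand higher in both groups.

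The summed FPKM of the 6 aldehyde dehydrogenases was 2234 ± 181 in DDK and 2290.1 ± 9.61 in vehicle livers, with a different make-up. Aldh1a1 held 46.4 ± 3.63% of this sum in DDK livers and 35.5 ± 0.79% in vehicle livers. Aldh2 held 31.3 ± 2.70% in DDK and 37.5 ± 3.77% in vehicle livers. Aldh3a2 held 3.05 ± 0.25% in DDK and 9.08 ± 0.42% in vehicle livers, and the size of both shares depends on its recovered length of 7843 bp. The shares of Aldh1l1 were 11.8 ± 2.07% in DDK and 8.68 ± 1.44% in vehicle livers, those of Aldh1a7 6.19 ± 1.10% in DDK and 8.18 ± 1.20% in vehicle livers, and those of Aldh1b1 1.35 ± 0.12% in DDK and 1.02 ± 0.43% in vehicle livers. The ratio of Aldh1a1 to Aldh2 was 1.26, 1.49 and 1.75 in DDK livers and 0.843, 1.08 and 0.946 in vehicle livers, so the cytosolic transcript exceeded the mitochondrial one in every DDK liver and was near it in vehicle livers.

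**Figure D3:**
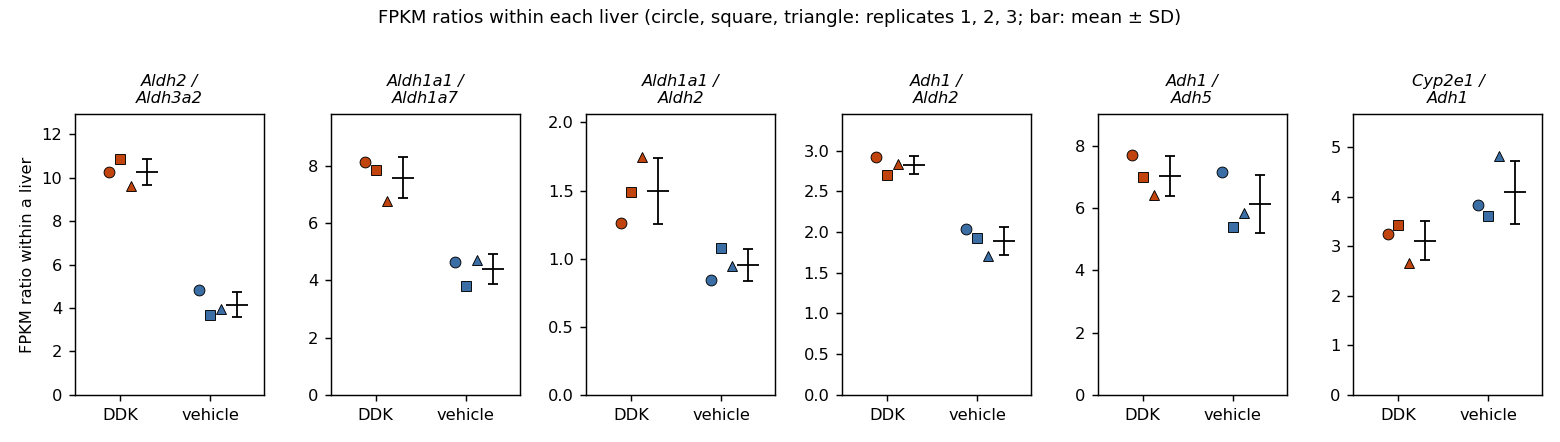
FPKM ratios of gene pairs within each liver, DDK at the left and vehicle at the right of each panel, with symbols for replicates 1 to 3 and a bar for the mean ± SD (n = 3). Aldh2 over Aldh3a2 lies at 9.64 to 10.9 in DDK and 3.69 to 4.81 in vehicle livers, and Adh1 over Adh5 overlaps between the groups.

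The gene pairs were chosen with earlier results of these data known, and single genes did not overlap between the groups in 53.3% of all tested, so a ratio without overlap is a description only. Between the oxidation of alcohol and that of acetaldehyde, Adh1 over Aldh2 was 2.93, 2.70 and 2.84 in DDK livers and 2.03, 1.93 and 1.70 in vehicle livers, without overlap. Adh1 is among the 2138 shortest genes and Aldh2 among the 2138 of 3806 to 5722 bp, whose median changes were 0.10 and -0.31, a gap that runs the same way as this ratio. Aldh2 over Aldh3a2 was 10.3, 10.9 and 9.64 in DDK livers and 4.81, 3.69 and 3.95 in vehicle livers, and both genes are long, in length classes with medians of -0.31 and -0.29.

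The relatives outside the set were described next. Of 15 other aldehyde dehydrogenase genes, 9 passed the filter on low values, and of these 5 fell and 0 rose, where 30.3% of all genes tested fell and 10.2% rose. Their median change was -0.47, against -0.23 over all genes. After median-ratio scaling the counts were 1 lower and 1 higher, as TPM 7 and 0 and with quantile normalization 3 and 0. Without DDK replicate 1 or 2 or vehicle replicate 2 or 3, 2 were lower, and without DDK replicate 3, 3 were. Aldh4a1, the mitochondrial enzyme of proline breakdown, fell to an FPKM of 47.6, 46.4 and 45.0 in DDK livers, against 64.8, 102 and 118 in vehicle livers. Its change was -0.97 ± 0.20 (limma adjusted p = 0.0054), and it passed under all alternatives. Aldh7a1, an enzyme of lysine breakdown, fell to 98.7, 108 and 112 in DDK livers against 149, 165 and 169.5 in vehicle livers (-0.59 ± 0.12, limma adjusted p = 0.00568), but did not pass after median-ratio scaling (-0.30, adjusted p = 0.115). Aldh8a1, the most abundant of these relatives in the mean of DDK livers, did not pass, at 142 ± 6.34 in DDK and 156 ± 11.0 in vehicle livers (-0.13 ± 0.12, limma adjusted p = 0.389).

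Of 3 other alcohol dehydrogenases, only Adh7, a class IV enzyme best known from the stomach lining, passed the filter. It was low, with an FPKM of 2.95, 2.54 and 2.17 in DDK livers and of 1.82, 1.14 and 1.72 in vehicle livers. The groups did not overlap and the gene rose by 0.48 ± 0.16 (limma adjusted p = 0.0364), but the call was lost under 8 alternatives, among them leaving out DDK replicate 1 (adjusted p = 0.129), DDK replicate 2 (0.10), vehicle replicate 2 (0.14) or vehicle replicate 3 (0.0671).

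**Figure D4:**
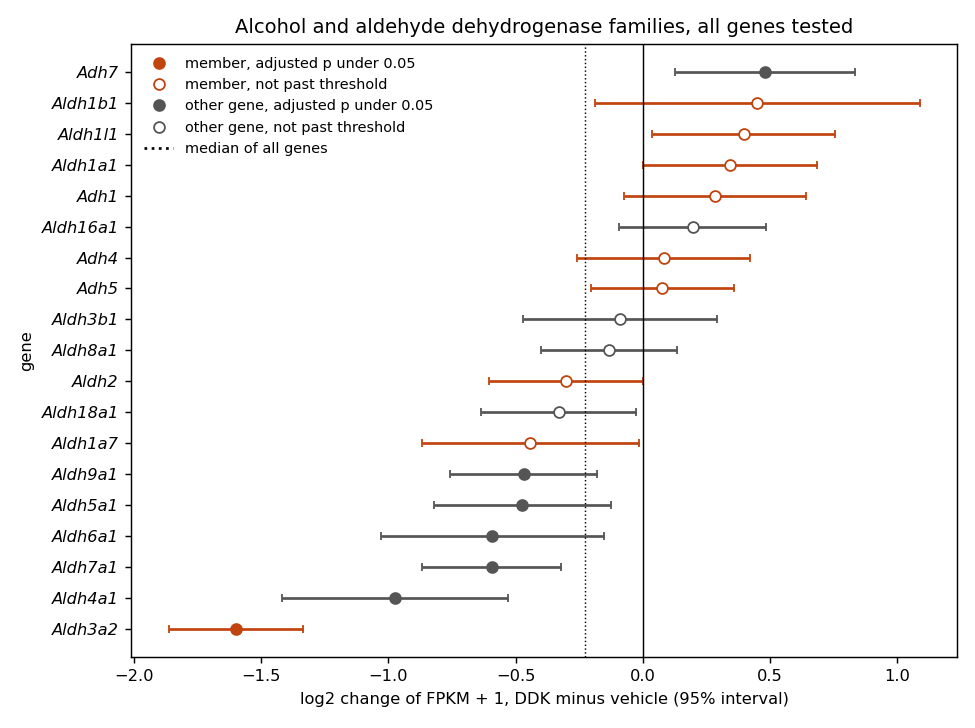
Log2 change of FPKM + 1, DDK minus vehicle, with 95% interval, for every alcohol and aldehyde dehydrogenase gene tested, filled where the limma adjusted p was under 0.05. Aldh3a2 has the lowest change at -1.60, followed by Aldh4a1 at -0.97, and Adh7 at 0.48 is the one filled point above 0.

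Pathways that meet these enzymes held genes called in both directions, as did all genes tested, with 10.2% higher and 30.3% lower. Of 19 other enzymes of aldehyde and carbonyl handling, 2 rose and 3 fell, with a median change of -0.14 where that of all genes was -0.23. Akr1b7, an aldo-keto reductase that reduces lipid aldehydes, rose to an FPKM of 2.13 ± 0.72 in DDK livers against 0.238 ± 0.095 in vehicle livers (1.32 ± 0.17, limma adjusted p = 0.000928). Cbr3, a carbonyl reductase, fell to 2.08 ± 1.37 in DDK livers against 5.69 ± 0.71 in vehicle livers (-1.20 ± 0.26, limma adjusted p = 0.00703). Median-ratio scaling gave 5 higher and 1 lower in this list, and leaving out vehicle replicate 1 gave 5 and 6, DDK replicate 2 or vehicle replicate 2 gave 2 and 1, and vehicle replicate 3 gave 1 and 2.

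Of 19 retinoid metabolism genes tested, whose median change was -0.14, 4 rose and 5 fell, or 6 and 2 with median ratios and 2 and 3 when vehicle replicate 3 was left out. Of all genes tested, 10.2% rose and 30.3% fell. Cyp26a1, which degrades retinoic acid and is itself induced by it, rose to 7.55, 6.34 and 9.99 in DDK livers against 3.83, 3.15 and 2.61 in vehicle livers (FPKM; log2 change 1.08 ± 0.18, limma adjusted p = 0.00266). Rdh5, a retinol dehydrogenase, rose to 9.73 ± 0.75 in DDK livers against 5.91 ± 0.38 in vehicle livers (0.63 ± 0.13, limma adjusted p = 0.00592). Rdh9, another retinol dehydrogenase of the short-chain family, fell to 39.3 ± 2.54 in DDK livers against 72.4 ± 13.2 in vehicle livers (-0.85 ± 0.15, limma adjusted p = 0.00315). Genes of this list were called in both directions, as were genes of the whole table, so the counts are a description only.

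Genes around formaldehyde, acetate and folate follow. Of 5 genes tested that act on acetate, after Adh5 or on glutathione, 2 fell and 0 rose, with a median change of 0.05. Over all genes tested, 30.3% fell and 10.2% rose. Those that fell were Acss3 (-1.11 ± 0.28, limma adjusted p = 0.0126) and Acss2 (-0.58 ± 0.17, limma adjusted p = 0.0262). The counts were 1 lower and 1 higher with median ratios, 1 and 0 without DDK replicate 1 or 2 or vehicle replicate 2, and 0 and 0 without vehicle replicate 3. Esd, the hydrolase that follows Adh5 in formaldehyde clearance, had an FPKM of 180.3, 184 and 224.5 in DDK livers and of 174, 159 and 143 in vehicle livers. Its groups did not overlap, but the change of 0.30 ± 0.14 did not pass as deposited (limma adjusted p = 0.107) and did after median-ratio scaling (0.59, adjusted p = 0.0256). Of 22 genes of folate 1-carbon metabolism, 1 rose and 3 fell, with a median change of -0.10, where 10.2% of all genes rose and 30.3% fell. Folate genes called were 0 higher and 1 lower without DDK replicate 1 or 2 or vehicle replicate 3, 0 and 3 without vehicle replicate 2, and 1 and 5 without vehicle replicate 1.

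Of 12 hepatocyte transcription factors and receptors known to act on these genes, with a median change of -0.19, 3 rose and 5 fell, or 3 and 3 with median ratios, 1 and 2 when DDK replicate 2 was left out, and 2 and 2 without vehicle replicate 2 or 3. Over all genes tested, 10.2% rose and 30.3% fell. Cebpa fell to 137 ± 5.02 in DDK livers against 228 ± 29.1 in vehicle livers (FPKM; -0.73 ± 0.13, limma adjusted p = 0.0034). Ppara, the fatty acid receptor, fell to 20.7 ± 0.66 in DDK livers against 36.9 ± 9.33 in vehicle livers (-0.78 ± 0.18, limma adjusted p = 0.00946). Nr1i3, the xenobiotic receptor CAR, rose to 113, 113.5 and 68.1 in DDK livers against 57.6, 31.5 and 46.8 in vehicle livers (1.10 ± 0.25, limma adjusted p = 0.00793). Their levels moved beside those of the members, and a link between them was not tested.

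No single liver was the highest or the lowest of its group for all members. DDK replicate 3 was the highest DDK liver for Adh4, Adh5, Aldh1a1, Aldh1a7 and Aldh3a2 and the lowest for Cyp2e1, Aldh2 and Aldh1l1. Vehicle replicate 1 was the highest vehicle liver for Adh1, Cyp2e1 and Aldh2 and the lowest for Aldh1b1, Aldh1a1, Aldh3a2 and Aldh1l1.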

How the data were processed

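Liver RNA of 6 mice, 3 given DDK and 3 given vehicle, was sequenced; per the labels' protocols, livers were frozen in liquid nitrogen and 1.3 µg of total RNA went into each library by the NEBNext Ultra RNA kit (it does not mark strand). The values are the authors' deposited FPKM per gene symbol, on the GRCm38 (mm10) build, per the submitters' processing notes. Which aligner, counter and annotation were used is not given in the sources used here. Groups were taken from the treatment label. The p-values set the difference between the groups against the spread of livers within a group, for these 6 livers only.

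Whole gene lengths and library totals were recovered from the FPKM values: 99.97% of values above 0 were whole fragments within 0.01, for 16568 of 16573 genes above 0. The 2 groups were compared by limma 3.58.1 in R 4.3.3 on log2(FPKM + 1), with a variance trend, for the 10681 genes that reached an FPKM of 0.5 in 3 or more libraries, and p-values were adjusted by Benjamini-Hochberg over all of them. Changes on this scale understate those of low genes. Ratios, shares and sequence features were computed in Python 3.11.15, from RefSeq promoters and GENCODE M21. The fit was also run on simulated data with independent noise and no shift in scaling or by gene length, so that run does not bear on such shifts.

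The members and gene lists were chosen with earlier results of these data known. Named genes were the members and, of each pathway list, the 2 most abundant and the 2 with the smallest p in each direction; not all are given. Alternatives were pseudocounts of 0.1 and 0.5, no filter and a filter at 1, median-ratio, quantile and TPM scaling, leaving out the 20 most abundant genes, leaving out each library in turn, library weights, a replicate block, robust moderation, no variance trend, limma's voom on the recovered fragments, and, added after the data were seen, a correction for gene length (lowess, span 0.3).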

Additional observations from a re-analysis of the deposited data

How the results depend on the processing

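Over the alternatives, Aldh3a2 remained lower throughout, and the cause of the other shifts was not tested. Of the members, 2 were higher after median-ratio scaling, with library weights and after correction for gene length, and 0 to 1 without single libraries. Lower members were 3 with quantile normalization, as TPM and without the 20 most abundant genes, 2 with library weights, and 1 to 2 without single libraries. Over all genes, calls higher and lower in DDK were 1924 and 1727 with median ratios, 1886 and 1743 with quantiles, 631 and 4929 as TPM, 1722 and 1844 with the length correction, and 610 to 1356 and 1738 to 4330 without single libraries (642 and 2154 without DDK replicate 1, 610 and 1738 without DDK replicate 2, 709 and 2224 without vehicle replicate 2, 643 and 1847 without vehicle replicate 3).

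Signs turned as follows. With quantile normalization Adh1 was at -0.0040, Adh5 at -0.14 and Aldh1a1 at -0.01. As TPM Adh4 was at -0.15 and Adh5 at -0.16, and without the 20 most abundant genes Adh4 was at -0.021 and Adh5 at -0.027. Without single libraries Adh4 ran from -0.028 (without vehicle replicate 3) to 0.20, being at -0.0068 without DDK replicate 3, and Cyp2e1 ran from -0.24 to 0.0024 (without DDK replicate 3). Cyp2e1 was at 0.19 after median-ratio scaling, 0.012 with library weights and 0.0035 after correction for gene length, Aldh2 at 0.0043 after that correction, and Aldh8a1 at 0.16 after median-ratio scaling and 0.061 after the correction. In all, 169 member values kept direction and call, 16 passed newly and 14 turned sign.

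With the replicate number as a block, 0 members were higher and 1 lower, and 1052 genes higher and 3082 lower. Same-numbered livers did not deviate together (correlations 0.14, -0.15 and 0.06), so the numbers do not pair the livers.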
